A study of Mus musculus with 7 samples.

Results

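Among the genes read by the arrays of this series, 9 genes outside the histocompatibility complex stood out by a pattern within the wild-type group: arrays WT A and WT B lay apart from WT C and from all T-ETV1 arrays. The 9 genes, of 18193 measured genes in all, are Dnase1l2, Slc6a2, Slc52a3, Fbxw9, Xdh, Cd59a, Ugt8a, Scn3a and Golt1b. They were chosen by this pattern, so the separation of WT A and WT B is how they were found, and it is described below without a test. Together they have 18 probe sets, and every one is described. In 5 genes (Dnase1l2, Slc6a2, Slc52a3, Fbxw9 and Xdh) WT A and WT B were the low arrays, and in 4 (Cd59a, Ugt8a, Scn3a and Golt1b) they were the high arrays.

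The study measured RNA of luminal cells, the secretory epithelium of the prostate gland, sorted from mice by flow cytometry. The 4 T-ETV1 arrays (A to D) are of mice in which the endogenous Tmprss2 promoter drives a human ETV1 cDNA, and their cells were sorted as GFP positive. The 3 WT arrays (A to C) are of wild-type mice and had no GFP gate, and the effects of genotype and gate cannot be told apart. Cells of both groups were sorted as CD49f positive and Sca1 negative after removal of CD31, CD45 and Ter119 positive cells. ETV1 is an ETS transcription factor, and Tmprss2 encodes an androgen-regulated serine protease of the prostate epithelium. The sources used here give neither the strain, nor the age, nor the number of mice behind each array. The 4 T-ETV1 arrays and 3 WT arrays are set against a stated 3 biological replicates in the design, and no label says which arrays came from separate animals.

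The genes belong to unlike pathways. Dnase1l2 encodes a DNase I-like endonuclease known from mouse epidermis, Slc6a2 the noradrenaline transporter, Slc52a3 a riboflavin transporter, Fbxw9 an F-box protein of the kind that brings substrates to SCF ubiquitin ligases, and Xdh the xanthine oxidoreductase that makes uric acid in purine breakdown. Cd59a encodes a membrane-anchored inhibitor of the complement membrane attack complex, Ugt8a the ceramide galactosyltransferase that makes the galactolipids of myelin, Scn3a a pore-forming subunit of voltage-gated sodium channels and Golt1b a membrane protein of Golgi transport. A probe set reads a gene through a few short stretches near the end of its transcript, so probe sets of the same gene may read different transcript forms, and the level of a probe set cannot be set against that of another.

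Of the 9 genes 5 had a promoter in the RefSeq table of GRCm38.p6, the C57BL/6J reference, which gives 250 bases before and 50 after a gene's start. Promoters are shown for Dnase1l2 and Ugt8a, which had the widest gaps with WT A and WT B low and high, and for Fbxw9, which holds the letters CCGGAAGT of an ETS binding motif, the factor family of the transgene. Capitals mark matches to CCGGAAGT or to GGGCGG (a GC box) on either strand, with overlapping matches included.
Dnase1l2, chr17:24443052-24443351, minus strand: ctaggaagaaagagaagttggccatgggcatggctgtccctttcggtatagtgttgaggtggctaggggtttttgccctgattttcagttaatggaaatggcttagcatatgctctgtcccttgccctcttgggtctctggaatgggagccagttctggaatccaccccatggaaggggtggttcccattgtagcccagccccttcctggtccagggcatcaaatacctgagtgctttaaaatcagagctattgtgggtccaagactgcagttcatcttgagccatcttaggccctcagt
Fbxw9, chr8:85059869-85060168, plus strand: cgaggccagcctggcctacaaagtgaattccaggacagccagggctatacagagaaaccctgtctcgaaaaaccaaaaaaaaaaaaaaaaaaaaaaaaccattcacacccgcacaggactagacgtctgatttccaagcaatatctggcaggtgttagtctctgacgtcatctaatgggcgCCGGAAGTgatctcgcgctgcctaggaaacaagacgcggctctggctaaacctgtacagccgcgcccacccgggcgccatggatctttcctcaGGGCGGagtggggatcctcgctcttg
Ugt8a, chr3:125938603-125938902, minus strand: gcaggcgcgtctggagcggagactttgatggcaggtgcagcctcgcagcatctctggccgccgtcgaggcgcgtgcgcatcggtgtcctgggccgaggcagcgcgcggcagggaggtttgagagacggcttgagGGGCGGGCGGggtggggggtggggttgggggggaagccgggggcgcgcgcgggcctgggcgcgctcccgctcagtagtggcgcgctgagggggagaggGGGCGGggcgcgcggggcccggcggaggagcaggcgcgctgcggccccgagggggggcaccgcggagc

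CCGGAAGT was present in 1 of the 5 promoters (Fbxw9, starting at base 182 of the window) and in 3.89% of all 32851 promoters of the table. GGGCGG was present in 3 of the 5 (Ugt8a, Fbxw9 and Golt1b) and in 35.7% of all promoters, and TATAAA in 0 of the 5 and 13.6% of all. The promoters differed in base composition. GC content was 51.0% in Dnase1l2, 52.7% in Fbxw9, 45.7% in Cd59a, 78.3% in Ugt8a and 69.3% in Golt1b, against a median of 52.7% over the table. Matches are letters in these windows and say nothing of binding.

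The label of luminal cells was checked against markers. All 8 luminal markers measured of 10 listed, among them Krt8, Krt18, Pbsn and Hoxb13, were bright on every array, and their summed intensity was 69900.0 to 75324 on T-ETV1 arrays and 70357 to 72279 on WT arrays. Array medians of the intensity lay between 48.5 and 62.9 in T-ETV1 and between 51.8 and 73.7 in WT. Markers of other cells varied more. Summed leukocyte and basal markers were highest on the C array of each group: the 7 leukocyte markers summed to 5969 to 15940 on T-ETV1 arrays and 7008 to 20495 on WT arrays, and the 6 basal markers to 3323 to 18315 on T-ETV1 arrays and 7461 to 20178 on WT arrays. On the arrays other than C, most of the leukocyte sum came from Cd52, with 5751 on T-ETV1 D and 6831 on WT B. On T-ETV1 A, B and D most of the basal sum came from Dst, with 3007 on T-ETV1 A. None of the 10 marker lists, with 60 measured genes, had WT A and WT B apart from the other 5 arrays in its mean log2 value, and none of the 60 genes had them apart by 1 or more. In sorted cells measured in bulk, fewer cells of a type and less RNA per cell cannot be told apart.

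The separation was measured as a gap on the scale log2(intensity + 16): the distance between WT A and WT B on one side and the nearest of the other 5 arrays on the other, negative where they overlap. Of the 18 probe sets, 13 had WT A and WT B apart at all, against 9.17% of the 34945 probe sets that carry a single gene name; they were low in 8 (4.76% of all) and high in 5 (4.41% of all). In 11 the gap was 1 or more, against 0.123% of all, which is how the genes were chosen. Each of the 9 genes had at least 1 such probe set, 6 probe sets with WT A and WT B low (0.0715% of all) and 5 with them high (0.0515%). Gaps of the 11 ranged from 1.24 in Golt1b to 3.85 in Dnase1l2, with a median of 2.17, while the median gap of all probe sets was -0.28. Among the 18, the probe set just inside the limit of 1 was that of Golt1b at 1.24, and the one just outside a Slc6a2 probe set at 0.38. The genes were chosen for wide gaps, so this empty stretch does not speak for the limit. Over all probe sets the gaps ran on across it, with 35 between 0.75 and 1.0 and 17 between 1.0 and 1.25.

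**Figure D1:**
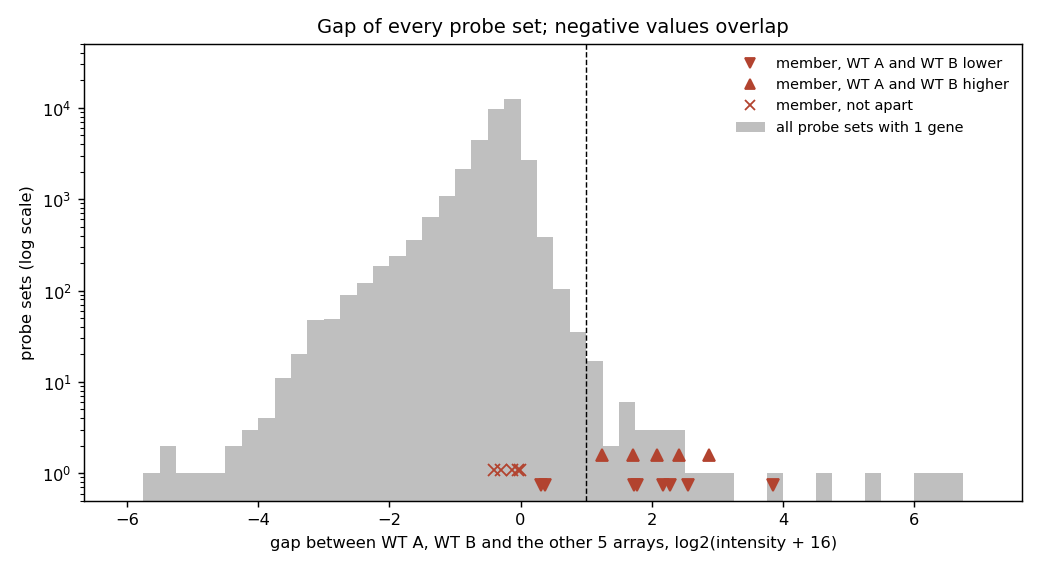
Histogram of the gap between WT A and WT B and the other 5 arrays (horizontal axis, log2 units) over 34945 probe sets (vertical axis, number on a log scale), with the 18 probe sets of the 9 genes as red symbols whose height has no meaning. The dashed line is the limit of 1; 11 symbols lie to its right, between 1.24 and 3.85.

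**Figure D2:**
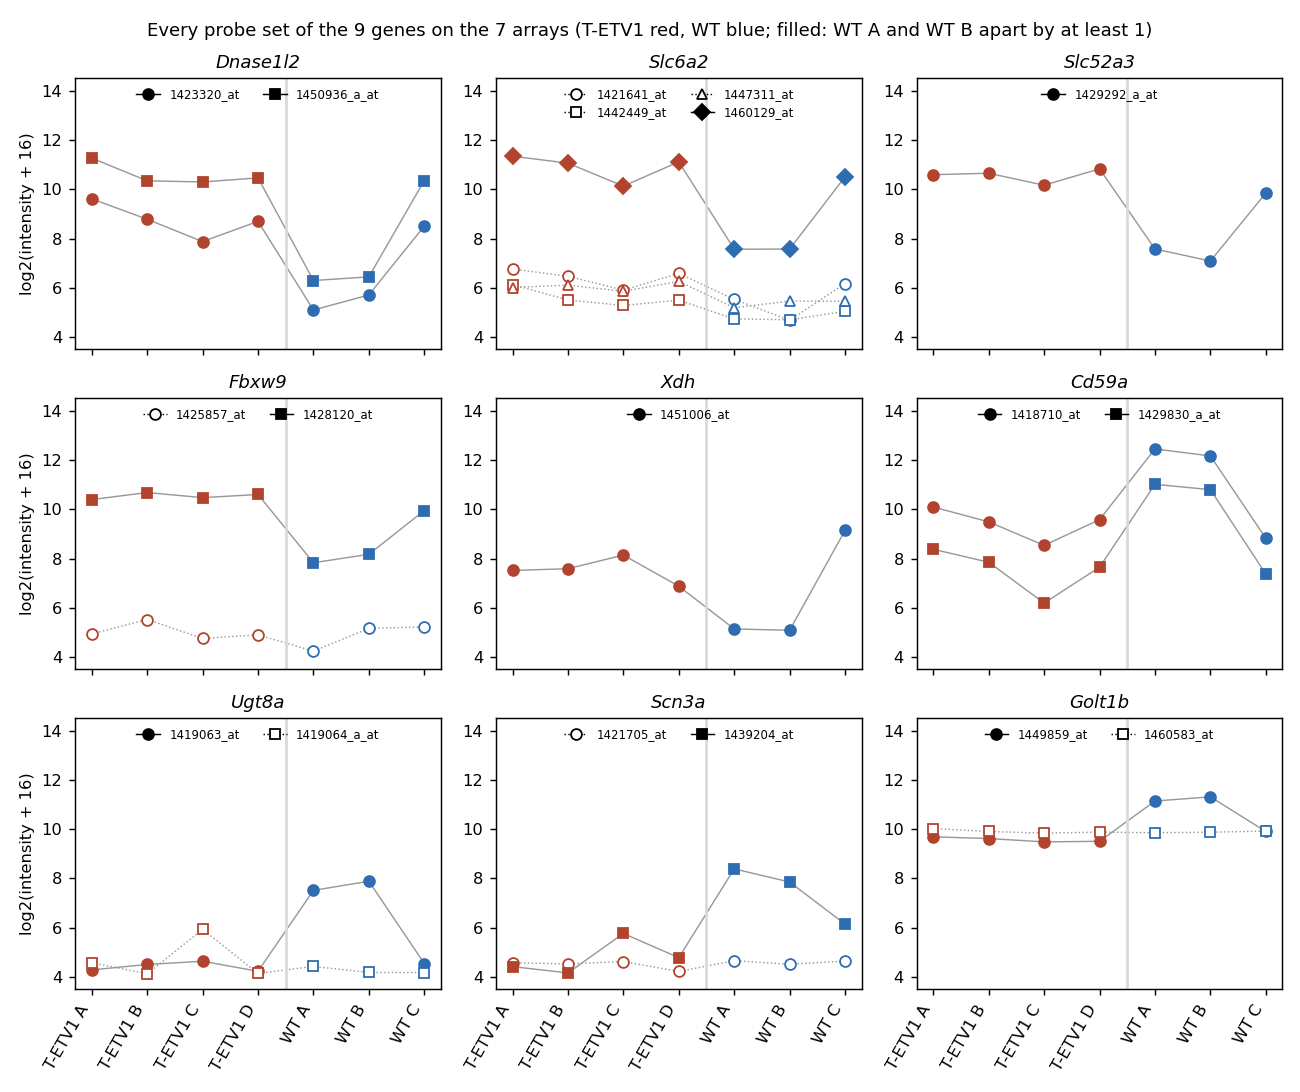
Values of log2(intensity + 16) of every probe set of the 9 genes on the 4 T-ETV1 arrays (red, left) and the 3 WT arrays (blue, right); filled symbols are probe sets with a gap of 1 or more, open symbols the others, and lines only join values of a probe set. In the filled series WT C lies nearer to the T-ETV1 arrays than WT A and WT B do, within their range in 6, above it in 3 and below it in 2.

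Dnase1l2 had the widest gap. Its probe set 1450936_a_at had intensities of 2444, 1285, 1243 and 1394 on T-ETV1 A, B, C and D, against 62.6, 71.1 and 1295 on WT A, B and C. WT A and WT B were the 2 low arrays, and WT C lay inside the T-ETV1 range. The second probe set of the gene, 1423320_at, had 767, 425, 219 and 399 on T-ETV1 arrays, against 18.3, 36.4 and 348 on WT arrays, with the same 2 low arrays and a gap of 2.17. Dnase1l2 and Cd59a were the 2 genes with several probe sets in which all of them had a gap of 1 or more.

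Slc6a2 was read by 4 probe sets, of which 1 had a wide gap. Probe set 1460129_at had 2581, 2120.2, 1104 and 2200.2 on T-ETV1 A to D, against 174, 174 and 1440 on WT A to C, so WT A and WT B were nearly equal (0.01 apart on the log2 scale) and low. The other 3 probe sets were dim on all arrays. 1421641_at had 92.7, 72.5, 44.0 and 80.1 on T-ETV1 arrays, against 30.2, 9.63 and 56.2 on WT arrays, a gap of 0.38 in the same direction. 1442449_at had 54.1, 29.4, 23.0 and 29.1 on T-ETV1 arrays, against 10.7, 10.04 and 17.0 on WT arrays, a gap of 0.30. In 1447311_at, WT B (28.0) and WT C (27.8) were level, WT A had 20.5, and the T-ETV1 arrays had 42.0 to 60.7. In that probe set and in 1442449_at all WT arrays were below all T-ETV1 arrays, so WT C did not lie with the T-ETV1 arrays there.

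Slc52a3 had 1 probe set, 1429292_a_at, with 1528, 1593, 1133 and 1803 on T-ETV1 A to D, against 175, 120.0 and 905 on WT A to C. WT C was the lowest of the 5 high arrays, so that all T-ETV1 arrays were above all WT arrays. Fbxw9 showed this order too. Its probe set 1428120_at had 1329, 1623, 1404 and 1535 on T-ETV1 arrays, against 211, 272 and 971 on WT arrays. The other Fbxw9 probe set, 1425857_at, was near the bottom of the scale and mixed: 14.7, 30.02, 11.0 and 13.9 on T-ETV1 arrays, against 2.88, 19.9 and 21.3 on WT arrays.

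Xdh, with 1 probe set (1451006_at), was the low-array gene with the widest spread among the other arrays. It had 167, 176, 266 and 101 on T-ETV1 A to D, against 19.3, 17.99 and 549 on WT A to C. WT C was above all T-ETV1 arrays and T-ETV1 C was the highest of its group. The summed markers of several other cell types had the same C arrays highest. The 7 leukocyte markers, all measured, summed to 15940 on T-ETV1 C and 20495 on WT C, and 6 of them, all but Cd52, were highest on the C array of each group. The 7 endothelial markers summed to 1537 on T-ETV1 C and 84.8 to 155 on the other T-ETV1 arrays, against 3621 on WT C and 1063 and 1473 on WT A and WT B. Basal, fibroblast and smooth muscle sums were highest on these arrays too. Ptprc, which encodes CD45, had 56.0 on T-ETV1 C and 467 on WT C, and 4.56 to 8.30 on the other 5 arrays. Xdh had 101 to 176 on T-ETV1 A, B and D, where Ptprc was at 4.56 to 8.30. Of the 7 leukocyte markers, 2 had WT A and WT B lowest as in Xdh, Cd53 (gap 0.07) and Lyz2 (0.14), and the rest did not. Cd53 had 139, 62.4 and 116 on T-ETV1 A, B and D, against 15.2 and 58.7 on WT A and WT B. Lyz2 had 147, 39.6 and 44.8 on these T-ETV1 arrays, against 21.1 and 34.5 on WT A and WT B. The part of other cells in the Xdh values was not tested.

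Cd59a was high on WT A and WT B by both of its probe sets. Probe set 1418710_at had 1075.0, 702, 355 and 749 on T-ETV1 A to D, against 5567, 4576 and 436 on WT A to C. 1429830_a_at had 316, 215, 57.1 and 184 on T-ETV1 arrays, against 2047, 1762 and 149 on WT arrays. In both, the C arrays were the lowest of their groups and WT C lay inside the T-ETV1 range.

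Ugt8a and Scn3a were at the low end of the scale except on WT A and WT B. For Ugt8a, 1419063_at had 3.53, 6.78, 8.94 and 2.81 on T-ETV1 A to D, against 167, 221 and 7.36 on WT A to C, all of the low values being under the pseudocount of 16. A gap against arrays at this level depends on the pseudocount: it was 2.88 with 16, 4.08 with a pseudocount of 1 and 1.66 with 64. The second Ugt8a probe set, 1419064_a_at, had 1.5 to 45.3 on T-ETV1 arrays, against 2.16 to 5.54 on WT arrays, and T-ETV1 C was its only array above 8.

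For Scn3a, 1439204_at had 5.46, 1.93, 38.5 and 11.6 on T-ETV1 A to D, against 319, 216 and 54.8 on WT A to C. All WT arrays were above all T-ETV1 arrays, and the C array of each group lay closer to the other group than the rest. The other Scn3a probe set, 1421705_at, stayed between 2.72 and 8.73 on T-ETV1 arrays and between 6.90 and 9.31 on WT arrays. Ugt8a and Scn3a are known from myelinating glia and neurons. Of 6 Schwann and glial markers 4 were measured; they summed to 1318 to 1780 on T-ETV1 arrays and 1545 to 2042 on WT arrays, most of it from Mbp. Sox10 had 4.12, 5.22, 207 and 5.12 on T-ETV1 arrays, against 128, 191 and 105 on WT arrays, so it was present on WT C and T-ETV1 C, where Ugt8a was at 7.36 and 8.94. Of the 6 sympathetic neuron markers 5 were measured and summed to 51.7 to 149 on T-ETV1 arrays and 99.4 to 362 on WT arrays; Th and Dbh were under 18 on every array, also where Slc6a2 was bright, and Tubb3 reached 17.7. Stmn2 and Snap25 were highest on WT C (171 and 154), where Slc6a2 had 1440; Snap25 had 96.5 on T-ETV1 D and at most 7.85 on T-ETV1 A, B and C, where Slc6a2 was bright as well. The part of such cells in these values was not tested.

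Golt1b had the narrowest gap and the clearest disagreement between probe sets. 1449859_at had 811, 772, 701 and 712 on T-ETV1 A to D, against 2248, 2528 and 944 on WT A to C, with WT A and WT B high. 1460583_at was level on all arrays, with 1028, 945, 901 and 928 on T-ETV1 arrays and 912, 925 and 957 on WT arrays. The same gene therefore had WT A and WT B apart by 1.24 in 1 probe set and overlapping in the other.

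Over the 11 probe sets with a gap of 1 or more, WT A and WT B differed from each other by 0.01 to 0.61 on the log2 scale, and the 4 T-ETV1 arrays spanned 0.21 (Golt1b) to 2.18 (Cd59a 1429830_a_at). WT C lay within the T-ETV1 range in 6, above it in 3 (Xdh, Scn3a and Golt1b) and below it in 2 (Slc52a3 and Fbxw9). T-ETV1 A was the highest of its group in 6 of the 11 and T-ETV1 C the lowest in 7.

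Both groups have arrays lettered A, B and C, and the deviations of such pairs from their group means correlated. Set side by side by letter, T-ETV1 and WT differed at these probe sets in A and B and little in C. The size of the T-ETV1 minus WT difference ranged from 1.45 to 4.97 for A, with a median of 3.02, and from 1.69 to 3.90 for B, with a median of 3.07. For C it ranged from 0.06 to 1.18, with a median of 0.38, and all 3 letters had the same sign in 6 of the 11 probe sets. For Dnase1l2 1450936_a_at the differences were 4.97 for A, 3.90 for B and -0.06 for C, and for Scn3a 1439204_at they were -3.97, -3.69 and -0.38. These values come from the arrays that chose the genes.

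**Figure D3:**
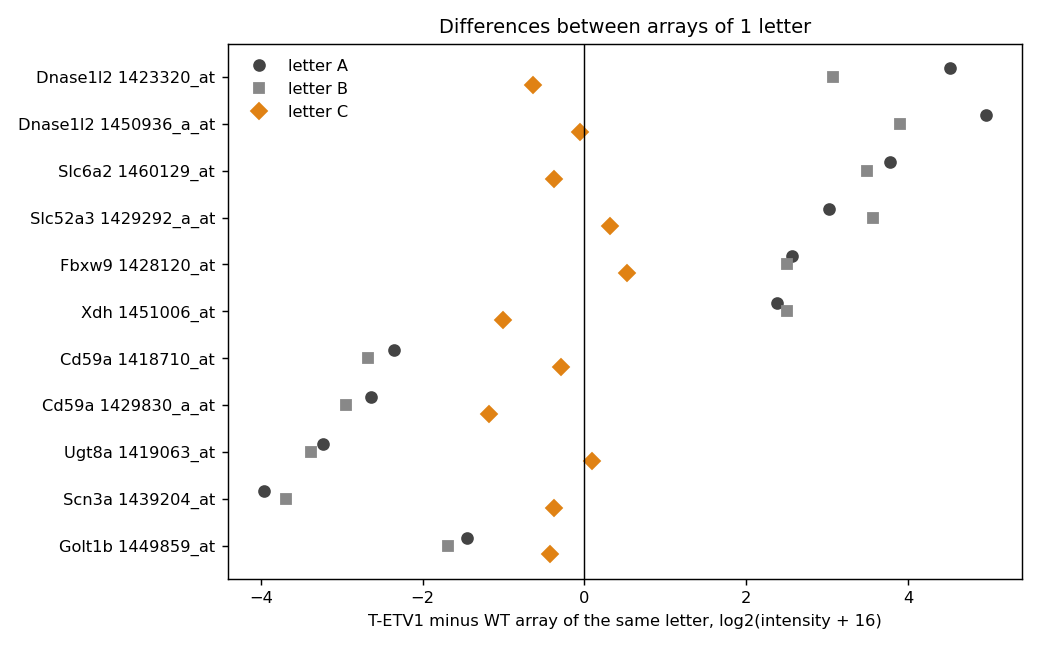
T-ETV1 minus WT array of the same letter (horizontal axis, log2 units) for the 11 probe sets with a gap of 1 or more (rows). Letters A (circles) and B (squares) lie at least 1.45 from 0, and letter C (diamonds) at most 1.18.

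The comparison of T-ETV1 with WT, fitted with limma, shows how such genes look in the design of the labels. SEs of the members' probe sets are of a fit over all probe sets with a single gene name, and p-values of a fit over all genes. Dnase1l2 (1450936_a_at) averaged 10.59 ± 0.45 in T-ETV1 (SD, n = 4) and 7.70 ± 2.30 in WT (SD, n = 3) on the log2 scale, a difference of 2.89 ± 0.98 (SE). Cd59a (1418710_at) averaged 9.42 ± 0.65 in T-ETV1 and 11.14 ± 2.02 in WT, a difference of -1.72 ± 0.90 (SE). Fbxw9 (1428120_at) averaged 10.54 ± 0.13 in T-ETV1 and 8.65 ± 1.14 in WT, a difference of 1.89 ± 0.48 (SE). The SD within WT was at least 0.77 in all 11 probe sets, a spread that follows from the rule.

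The other differences were 2.36 ± 0.76 for Slc6a2 (1460129_at), 2.39 ± 0.63 for Slc52a3, 1.07 ± 1.0 for Xdh, -2.23 ± 0.77 for Ugt8a (1419063_at), -2.68 ± 0.61 for Scn3a (1439204_at) and -1.21 ± 0.33 for Golt1b (1449859_at), T-ETV1 minus WT with the SE. None of the 9 genes passed a limma adjusted p of 0.05, nor did any of 18193 genes (0%); at an unadjusted p under 0.05 there were 7 of the 9 and 1113 of all (364 higher and 749 lower in T-ETV1). That split moved to 606 higher and 582 lower after quantile normalization and to 703 and 492 after median centring, which shifted the median difference of all genes to 0.11, from -0.03. Without T-ETV1 C it was 475 higher and 1315 lower. Of the 9 genes, 4 were at an unadjusted limma p under 0.05 without WT A (1206 of all 18193 genes). It was 4 without WT B (861 of all) and 5 with the replicate block (1314 of all). The median size of the difference was 2.23 over the 9 genes and 0.15 over all genes. In 4 of the 11 probe sets (Slc52a3, Fbxw9, Scn3a and Golt1b) the groups did not overlap, against 6.28% of all probe sets with a single gene name and 6.32% of genes at their brightest probe set. Nothing is read from these counts, since the rule used the same arrays.

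Without WT C the difference of every one of the 11 probe sets was larger and its SE smaller. Dnase1l2 (1450936_a_at) then had 4.22 ± 0.30, Cd59a (1418710_at) -2.88 ± 0.42, Ugt8a -3.28 ± 0.19, Slc52a3 3.23 ± 0.24, Xdh 2.42 ± 0.34 and Golt1b -1.65 ± 0.14. In that fit 7 of 18193 genes (0.0385%) passed, of which 5 were Dnase1l2, Fbxw9, Golt1b, Slc52a3 and Ugt8a. Removing WT C leaves only the separation by which the genes were chosen. Without T-ETV1 C 27 genes passed (0.148%), and none of the 9 was among them.

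**Figure D4:**
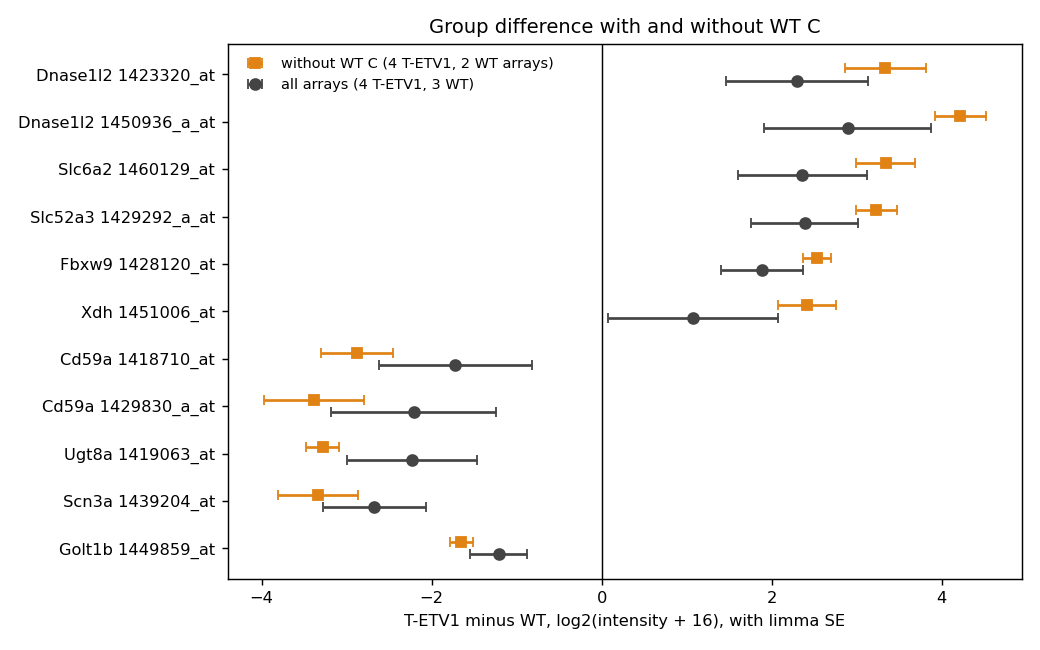
T-ETV1 minus WT difference (horizontal axis, log2 units, with the limma SE) of the 11 probe sets with all arrays (circles) and without WT C (squares). All 11 differences are farther from 0 without WT C, such as 4.22 against 2.89 for Dnase1l2 1450936_a_at.

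The rule did not use position, and the genes lie on 5 chromosomes of the RefSeq gene table of GRCm38.p6: Slc52a3, Cd59a and Scn3a on chromosome 2, Dnase1l2 and Xdh on 17, Slc6a2 and Fbxw9 on 8, Ugt8a on 3 and Golt1b on 6. Counted over all genes at their brightest probe set, WT A and WT B were apart by 1 or more in 27 of 18193 genes (0.148%), low in 16 (0.0879%) and high in 11 (0.0605%). Of these 27, 6 were on chromosome 2 and 5 on chromosome 17, which hold 7.76% and 4.63% of the genes with a position. The 6 include 3 of the members, and the 5 are 2 of the members, the histocompatibility genes H2-Q10 and H2-Q2, and Kifc1. By any probe set of a gene there were 38, with 11 on chromosome 17 and 7 on chromosome 2, and these include histocompatibility genes.

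Genes next to the members were counted for the same pattern. The 5 nearest measured genes on each side of a member came to 90. Of these, 0 had a gap of 1 or more at their brightest probe set, against 0.148% of all genes. At so low a share nothing is read from the 0. WT A and WT B were apart at all in 16 (17.8%), against 9.26% of all genes (5.23% low and 4.03% high). In 9 of the 16 they were apart to the same side as the member and in 7 to the other. Beside Fbxw9 there were 4: Tnpo2 (gap 0.51, WT A and WT B high), Man2b1, the lysosomal alpha-mannosidase (0.52, low), Cks1brt (0.09, low) and Dhps, the deoxyhypusine synthase (0.02, low). Man2b1 had 3207, 3247, 3699 and 3202 on T-ETV1 A to D, against 1949, 1883 and 2802 on WT A to C.

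Beside Dnase1l2 they were E4f1 (0.22), Tedc2 (0.20) and 4833447I15Rik (0.12), all with WT A and WT B high, where Dnase1l2 had them low. Beside Slc52a3 they were Scrt2 (0.17, low), Srxn1 (0.05, low) and Psmf1 (0.05, high), and beside Xdh Ehd3 (0.32, low) and Yipf4 (0.09, high). Lpcat2 beside Slc6a2 (0.20, low), A930018P22Rik beside Cd59a (0.04, high), and Camk2d (0.08, low) and Larp7 (0.02, high) beside Ugt8a complete the list, and Scn3a and Golt1b had no such neighbour. By any probe set, a count added after the values were seen, the nearest gene with a gap of 1 or more was Prdx2, a peroxiredoxin, 7 measured genes from Fbxw9. Its probe set 1430979_a_at had 1185, 1133, 2013 and 1279 on T-ETV1 arrays, against 63.0, 87.0 and 862 on WT arrays, the same low arrays as Fbxw9. Eme2, of a DNA repair endonuclease, was 30 measured genes from Dnase1l2 and had 369, 157, 118 and 210.1 on T-ETV1 arrays, against 25.2, 26.9 and 172 on WT arrays (1460628_at), again with the same low arrays. At their brightest probe sets neither Prdx2 nor Eme2 had a gap of 1 or more. Counted by brightest probe sets, the nearest such gene to Fbxw9 was Slc6a2, 47 measured genes away. The nearest to Dnase1l2 was then Kifc1, 225 measured genes away, with WT A and WT B high.

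**Figure D5:**
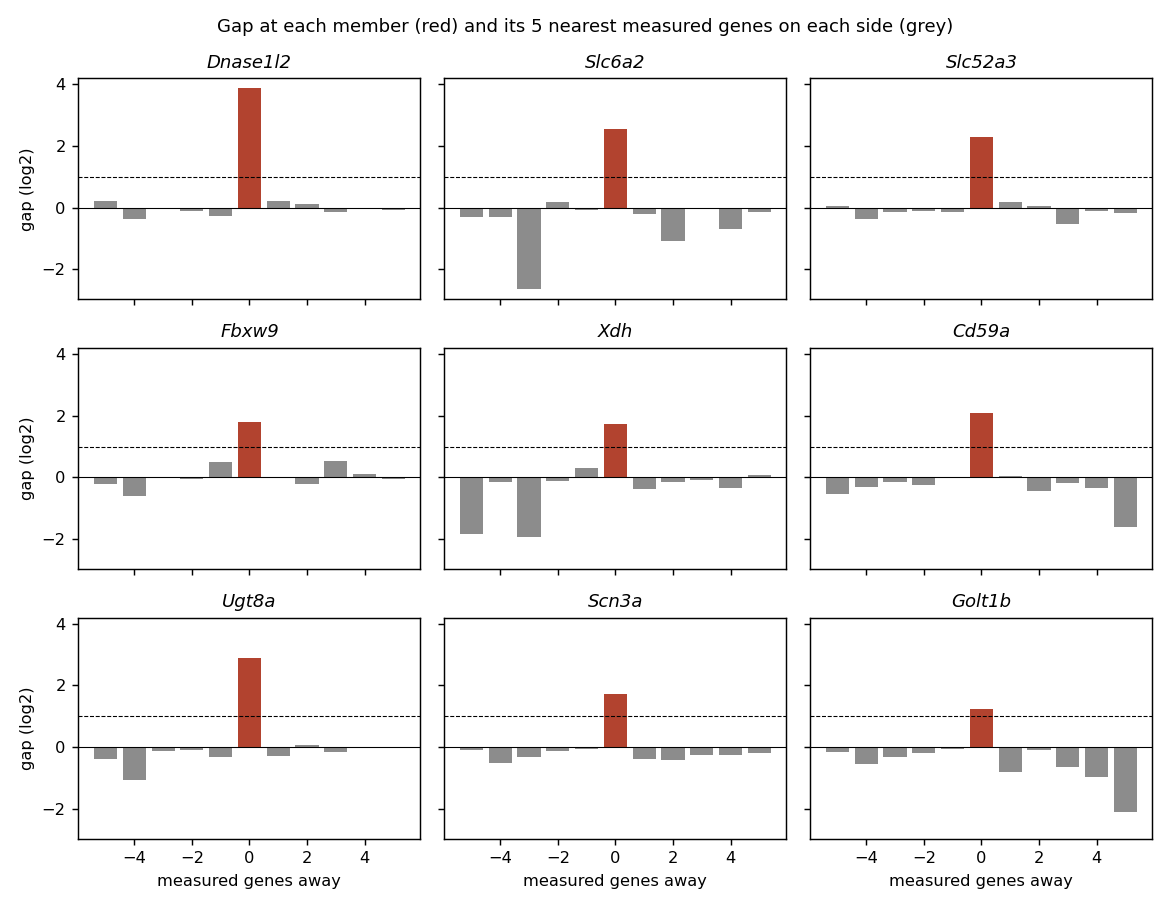
Gap between WT A and WT B and the other 5 arrays (vertical axis, log2 units) at the brightest probe set of each of the 9 genes (red) and of the 5 nearest measured genes on each side (grey; horizontal axis, measured genes away). The dashed line is a gap of 1, which no grey bar reaches.

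Genes of the same families and pathways were looked at next. Of 99 related genes listed, 87 were measured; 0 had a gap of 1 or more, against 0.148% of all genes, 11 (12.6%) had WT A and WT B apart at all, against 9.26% of all genes, and 0 passed the limma comparison of T-ETV1 with WT (smallest adjusted p = 0.581), as was the case for all genes (0%). Their median difference was -0.01, against -0.03 over all genes. The widest gap was 0.95, in Mocs1, which makes an early precursor of the molybdenum cofactor that Xdh needs. Mocs1 had 273, 246, 94.7 and 261 on T-ETV1 A to D, against 20.6, 31.8 and 76.5 on WT A to C (1425004_s_at), with WT A and WT B the lowest arrays as in Xdh. The difference of Mocs1 was 2.01 ± 0.45 (SE, limma adjusted p = 0.628).

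Of the 15 measured genes listed with Xdh, 3 were apart, the others being Urah (gap 0.12, low) and Mocs2 (0.02, high). Urah, of uric acid breakdown, had 3506, 2841, 3164 and 3149 on T-ETV1 A to D, against 2611, 2553 and 3785 on WT A to C, with WT A and WT B lowest and WT C highest as in Xdh, over a far narrower range. Golt1a, the paralog of Golt1b, had 863, 801, 1093 and 1062 on T-ETV1 arrays, against 1619, 1317 and 610.0 on WT arrays, so WT A and WT B were its highest arrays too, with a gap of 0.27. Slc18a1, a vesicular monoamine transporter listed with Slc6a2, had a gap of 0.09 (high) and a difference of -0.63 ± 0.13 (SE, limma adjusted p = 0.581). The remaining ones apart were Dnase1l3 (0.28, low), Fbxw2 (0.16, high), Scn11a (0.10, low), Cd46 (0.09, low), Psap (0.04, low) and Sft2d2 (0.03, low). None of the 4 measured riboflavin genes listed with Slc52a3 was apart.

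The genes whose pattern over the 7 arrays was most like that of each member were found by Pearson correlation, given as a description over arrays that share the separation. They were H2-Q2 for Dnase1l2 (r = 0.996), C920006O11Rik for Slc6a2 (r = 0.995) and for Slc52a3 (r = 0.992), Ifnb1 for Fbxw9 (r = 0.993), Rc3h1 for Xdh (r = 0.983), Uqcrc2 for Cd59a (r = 0.991), Rabepk for Ugt8a (r = 0.990), Fabp7 for Scn3a (r = 0.995) and Kcnj16 for Golt1b (r = 0.971). A high r does not need a wide gap: it was 4.61 in H2-Q2, 1.44 in Fabp7 and 1.43 in C920006O11Rik, and under 0.57 in the other 5.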

How the data were processed

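Per the labels' protocols, total RNA was extracted with Trizol, amplified with a NuGEN V2 kit, biotin-labelled and hybridised to Affymetrix mouse expression arrays. The authors deposited 1 linear intensity for each of 45037 probe sets and 7 arrays; how probes were summarised and arrays scaled is not given in the sources used here. Values were transformed to log2(intensity + 16), computed from the deposited intensities, which understates differences of dim probe sets. Array medians of the log2 values differed by at most 0.476, under the limit of 0.5 for quantile normalization, so the deposited scaling was kept. The platform annotation names 1 gene for 34945 probe sets, several for 932, and does not list 9160; 34741 symbols were matched by Entrez ID to the GRCm38.p6 gene table. Each of 18193 genes was represented by its probe set of highest mean log2 value. T-ETV1 minus WT was fitted with limma 3.58.1 in R 4.3.3, Benjamini-Hochberg adjusted over all genes, and tested on simulated data. The p-values and the SEs of related genes are of this fit over 18193 genes. SEs of the members' probe sets are of a second fit, over the 34945 probe sets with 1 gene.

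The members, gene lists and tests were chosen with earlier results of these data known. Genes named are the members, the non-member genes with the 5 widest gaps to each side (predicted genes and clone names left out), the most alike gene of each member, and related genes and neighbours that were apart; Prdx2, Eme2 and single marker genes were named after their values were seen. Same-letter arrays correlated in their deviations from the group means at 0.281 (A), 0.217 (B) and 0.356 (C), all over 0.1, so the letters were taken to pair the arrays. Pairs of unlike letters ranged from -0.320 (T-ETV1 C with WT A) to 0.187 (T-ETV1 D with WT A), the latter also over 0.1. The pairing entered only the replicate block and the differences between arrays of the same letter. The other differences and the SEs given are of fits without it, except where the block is named. The number of arrays limits the precision, and p-values measure the spread between these arrays only. Alternatives were other scalings, pseudocounts, filters and gap limits, every probe set on its own, the replicate block and leaving out arrays.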

Additional observations from a re-analysis of the deposited data

Results flagged for a closer look

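Dnase1l2 probe set 1450936_a_at was singled out because T-ETV1 A stood far from the other arrays of its group: its gap to the nearest array took up 0.831 of the T-ETV1 range, just over Dixon's critical value for 4 samples. The intensities were 2444 on T-ETV1 A and 1243 to 1394 on T-ETV1 B, C and D. Of the 18 probe sets looked at in this way 1 was singled out, and chance does so in about 1 in 20 groups. The gap of this probe set between WT A and WT B and the other 5 arrays was 3.85 with all arrays.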

How the results depend on the processing

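All 9 genes kept a probe set with a gap of 1 or more after quantile normalization, median centring, a pseudocount of 1 and leaving out the lowest 30% of probe sets. With a pseudocount of 64 it was 8, Xdh falling to 0.99, and with a limit of 2 it was 5. All 9 also kept one without T-ETV1 A, B, C or D or WT C. That was fixed in advance, as leaving out one of these arrays cannot narrow a gap. The gap was not computed without WT A or WT B. At the 11 probe sets with a gap of 1 or more, neither the gap nor the T-ETV1 minus WT difference changed sign under any alternative run. Among the other 7, the gap changed sign in Slc6a2 1442449_at (median centring), Slc6a2 1447311_at (without WT C) and Golt1b 1460583_at (without T-ETV1 C), and the difference in Fbxw9 1425857_at (without T-ETV1 B and without WT A), Scn3a 1421705_at (median centring) and Golt1b 1460583_at (without T-ETV1 A).

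Over all genes, 27 had WT A and WT B apart by 1 or more. The count was 58 with a pseudocount of 1, 15 with 64, 43 with every probe set on its own, 104 with a limit of 0.5 and 7 with a limit of 2. It lay between 33 (without T-ETV1 D) and 49 (without WT C) when 1 of the other 5 arrays was left out, as fewer arrays then bound the gap; it was 42 without T-ETV1 C. The count of genes past the limma threshold was 0 in each alternative except without T-ETV1 C (27) and without WT C (7), so its range without 1 array was 0 to 27. With the replicate block (arrays A to C) it was also 0, and the block changed no call. The block fit also leaves out T-ETV1 D, so its SEs are set beside those of the fit without T-ETV1 D and without a block. SEs moved both ways. For Cd59a 1429830_a_at the SE was 0.41 with the block, 1.12 without T-ETV1 D and 0.97 with all arrays. For Slc6a2 1460129_at it was 0.95 with the block, 0.87 without T-ETV1 D and 0.76 with all arrays. Dim probe sets limit what can be read: 3 of the 18 fell under the filter on low values.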

Other observations

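Beside the 9 genes, other genes had the same 2 arrays apart (predicted genes and clone names left out). With WT A and WT B low, the widest gaps at a gene's brightest probe set were those of H2-Q10 (6.24) and H2-Q2 (4.61), both of the class I histocompatibility family, then Prr9 (1.19), Cnbd2 (1.09) and Zfp33b (1.07). H2-Q10 had 6228, 2701, 3798 and 3543 on T-ETV1 A to D, against 14.0, 20.1 and 4799 on WT A to C. With WT A and WT B high, they were Fabp7, a fatty acid binding protein of the nervous system (1.44), Arhgap20os (1.17), Gad2, a glutamate decarboxylase (1.08), Kifc1, a kinesin of the mitotic spindle (1.03), and Tedc1 (1.01). Fabp7 had 1.83, 3.78, 30.1 and 6.38 on T-ETV1 arrays, against 220.2, 169 and 52.1 on WT arrays, with WT A and WT B high, WT C next and T-ETV1 C the highest T-ETV1 array, as in Scn3a.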
